A study of Mus musculus with 2 samples.

Results

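The RNAs described here are the small nucleolar RNAs (snoRNAs) and small Cajal body RNAs (scaRNAs) that gave reads in the mouse left cerebral cortex. Members are the gene models whose transcript type is snoRNA or scaRNA and whose expected count, the estimated number of reads of a gene, was at least 50 in both libraries. The rule took 35 of 1558 annotated snoRNA and scaRNA models, out of 55536 genes in the tables. Of the 35, 27 are typed snoRNA and 8 scaRNA. By symbol, 2 are Snord (box C/D), 3 are Snora (box H/ACA), 4 are Scarna, 9 are Rnu3 (the U3 RNA) and 17 carry Gm identifiers. The 35 models lie at 31 loci, because the Rnu3b genes are each annotated as a pair of overlapping models.

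The tissue came from 2 male mice aged 36 days of the F1 hybrid strain B6CASTF1/J. Each mouse gave 1 library of total RNA from 300 ng of starting material, with ERCC spike-in RNAs from a profile for stranded, ribosomal RNA-reduced libraries. The labels number them biological replicates 1 and 2 and give both the same donor identifier, and they name no treatment and no mutation. Both belong to 1 group, so values are compared between RNAs and between the 2 mice. Genes that check the tissue (Snap25, Rbfox3, Slc17a7, Aldoc, Slc1a2, Mbp and Csf1r, for neurons, astrocytes, oligodendrocytes and microglia) were present, at mean TPM of 33.1 to 1250.4.

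Most snoRNAs guide the chemical modification of other RNAs by base pairing. Box C/D RNAs bind fibrillarin and its partners and direct 2′-O-methylation, while box H/ACA RNAs bind dyskerin and its partners and direct the conversion of uridine to pseudouridine. A few, such as U3 and U17, are needed for the cleavage of the ribosomal RNA precursor instead. The scaRNAs carry the same boxes, gather in Cajal bodies and guide modification of the spliceosomal small nuclear RNAs. Mammalian snoRNAs are mostly cut out of the introns of host genes.

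The sequences below show the features by which the classes are read. They are from the GENCODE M21 transcripts (build mm10), on the RNA's own strand. The first is Snord15b at chr7:99479563-99479707 (minus strand), shown because it is the more abundant of the Snord members. The next are Scarna6 at chr1:87784556-87784820 and Gm25395 at chr1:87776938-87777209 (both plus strand), which lie in introns of the same host. Capitals mark the C box letters TGATGA and the D box letters CTGA.
Snord15b: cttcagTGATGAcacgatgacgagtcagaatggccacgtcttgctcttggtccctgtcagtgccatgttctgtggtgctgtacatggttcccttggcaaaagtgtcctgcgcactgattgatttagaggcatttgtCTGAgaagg
Scarna6: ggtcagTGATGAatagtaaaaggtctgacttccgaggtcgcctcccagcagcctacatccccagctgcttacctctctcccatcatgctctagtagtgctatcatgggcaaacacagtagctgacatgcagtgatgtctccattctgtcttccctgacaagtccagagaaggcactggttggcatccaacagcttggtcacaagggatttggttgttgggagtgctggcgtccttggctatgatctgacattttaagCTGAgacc
Gm25395: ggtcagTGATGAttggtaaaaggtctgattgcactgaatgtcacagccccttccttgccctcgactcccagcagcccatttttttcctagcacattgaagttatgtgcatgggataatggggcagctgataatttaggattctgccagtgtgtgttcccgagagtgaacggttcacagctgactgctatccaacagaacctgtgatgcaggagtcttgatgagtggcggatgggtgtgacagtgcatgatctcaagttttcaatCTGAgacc
The first 12 and the last 8 bases of Scarna6 and Gm25395 are the same, while 62.6% of aligned positions match over their whole length. Gm25395 has no name beyond its identifier in the annotation, so no role is given for it.

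Next come 3 closely related H/ACA-type models, shown because their levels differ widely although few bases do. They are Gm22988 at chr11:69669635-69669778 (minus strand), Gm25291 at chr11:51737779-51737922 (minus strand) and Gm25117 at chr10:111481493-111481636 (plus strand). Capitals mark the 14 positions that vary among them.
Gm22988: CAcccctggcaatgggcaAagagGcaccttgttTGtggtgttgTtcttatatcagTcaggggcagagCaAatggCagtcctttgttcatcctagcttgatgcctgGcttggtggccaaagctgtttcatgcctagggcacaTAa
Gm25291: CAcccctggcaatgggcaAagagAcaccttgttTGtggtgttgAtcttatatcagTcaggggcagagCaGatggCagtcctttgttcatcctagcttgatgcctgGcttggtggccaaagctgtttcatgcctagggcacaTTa
Gm25117: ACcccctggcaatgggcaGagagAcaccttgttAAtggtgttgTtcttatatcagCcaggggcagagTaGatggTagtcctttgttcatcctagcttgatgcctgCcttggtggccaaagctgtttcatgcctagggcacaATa
Identity was 97.2% between Gm22988 and Gm25291, 91.0% between Gm22988 and Gm25117, and 92.4% between Gm25117 and Gm25291. From Gm22988 to Gm25291 the substitutions are G24A, T44A, A70G and A143T, counted from 1 at the 5′ end with the Gm22988 base first.

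The U17 pair Snora73b at chr4:132352322-132352526 and Snora73a at chr4:132352775-132352979 (both minus strand) is shown because the 2 RNAs come from 1 host and their reads could be split between them. Capitals mark the 7 bases that differ.
Snora73b: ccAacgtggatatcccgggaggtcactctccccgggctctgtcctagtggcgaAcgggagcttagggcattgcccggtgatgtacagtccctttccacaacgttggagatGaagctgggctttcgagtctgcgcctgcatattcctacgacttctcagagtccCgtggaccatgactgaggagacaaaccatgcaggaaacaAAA
Snora73a: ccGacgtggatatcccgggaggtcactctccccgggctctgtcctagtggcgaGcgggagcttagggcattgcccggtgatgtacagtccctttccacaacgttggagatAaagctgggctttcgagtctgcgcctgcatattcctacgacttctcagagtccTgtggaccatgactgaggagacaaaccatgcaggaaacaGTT
The substitutions are A3G, A54G, G111A, C164T, A203G, A204T and A205T, with the Snora73b base first, and identity was 96.6%.

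The 3′ ends of the overlapping Rnu3b1 models, which start together at chr11:87443237 on the plus strand and end at 87443451 and 87443452, show the single base (capital) by which the annotation separates them. The last 30 bases of the shorter and the last 31 of the longer model are printed.
Rnu3b1, 215 nt: gtgagagggagggaacgcagtctgagtgga
Rnu3b1, 216 nt: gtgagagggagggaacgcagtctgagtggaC

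Whether a model could be measured at all depended on its length. The deposited effective length, the number of positions a read fragment can start from, was the model length minus 99 nt, so that the 462 models under 100 nt (29.7% of 1558) had an effective length of 0 and a count of 0. These have no value here, which says nothing of their expression. Of the 1096 models of 100 nt or more, 932 had 0 counts in both mice, 129 had some counts but missed the minimum, and 35 (3.19%) were members. A count of 0 allows up to 3 counts per library.

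Among the models that could be measured, the share of members was higher in the longer ones. The minimum is a fixed count, and a shorter effective length gives fewer counts at the same TPM. The rule itself thus favours longer models, and its part in this gradient was not tested. None of 212 models of 100 to 124 nt was a member, against 12 of 819 (1.47%) at 125 to 149 nt, 3 of 26 (11.5%) at 150 to 199 nt and 20 of 39 (51.3%) at 200 nt or more. The 8 Rnu3b models count among those 20. The median length was 205 nt for members (range 129 to 414 nt) and 128 nt for all annotated models.

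**Figure D1:**
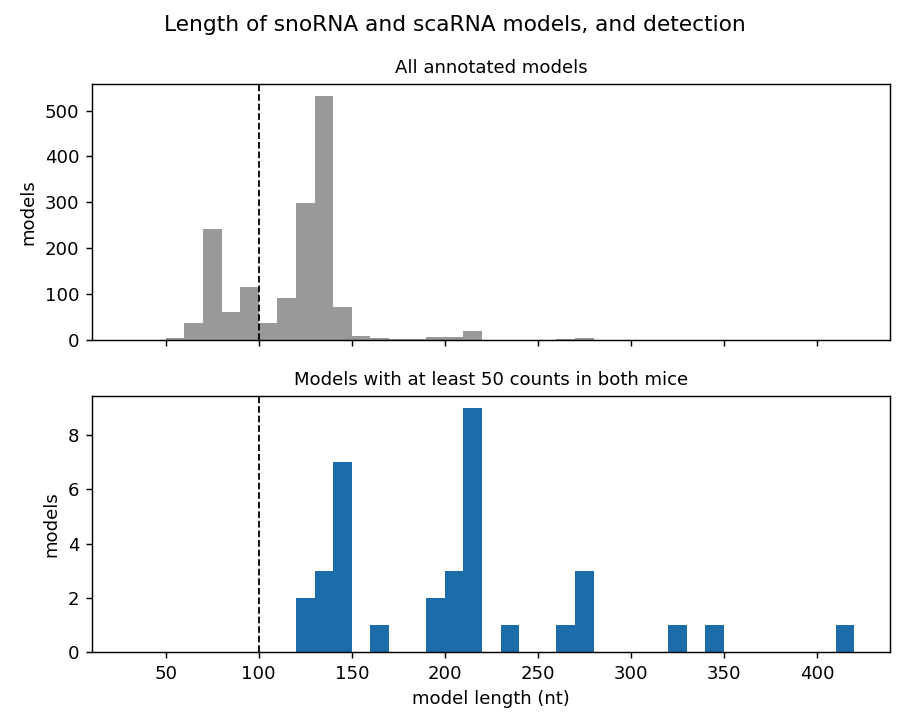
Lengths of snoRNA and scaRNA gene models in nucleotides (horizontal axis) against the number of models (vertical axis), for all 1558 annotated models (top) and the 35 members (bottom). The dashed line is at 100 nt, below which models had no value; members start at 129 nt, and the annotated models under the line form a separate peak that is missing from the members.

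This bore unevenly on the classes. Of 98 Snord models 87 (88.8%) were under 100 nt, and of the 11 longer ones 2 had 0 counts, 7 missed the minimum and 2 were members. All 42 Snora models were long enough, of which 17 had 0 counts, 22 missed the minimum and 3 (7.14%) were members. Of 9 Scarna models 2 were too short, 1 had 0 counts, 2 missed the minimum and 4 were members. Of 10 Rnu3 models 9 were members, and of 1385 Gm models 363 were too short and 17 were members.

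Well-known brain snoRNAs fall among those without a value. The 17 Snord116 models, which belong to the imprinted Prader-Willi region, are all 94 nt long. Snord64 (67 nt) and Snord107 (70 nt) of the same region are shorter still. Snord32a (83 nt), Snord33 (84 nt), Snord34 (70 nt) and Snord35a (90 nt), box C/D RNAs of the ribosomal protein gene Rpl13a, could not be measured either. The same holds for Snord60, Snord78, Snord95 and the models of Snord14 and Snord80.

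Of the other longer Snord models, some with known roles in ribosomal RNA processing missed the minimum. Snord118 (U8), which acts in processing of the large-subunit RNAs, had 0 counts in replicate 1 and 4 in replicate 2. Snord13 (U13) had 0 and 1, and with an effective length of 5 nt it was close to unmeasurable. Snord22 (U22), which acts in processing of the small-subunit RNA, had 43.3 counts in replicate 1 and 39.1 in replicate 2, equal to 81.5 and 78.8 TPM, so it lay just outside the rule while its TPM was above that of several members.

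The members nearest to the minimum on the inside were the 216-nt Rnu3b models (115 counts in replicate 1 and 52.8 in replicate 2), Gm25835 (55 and 57) and Gm25776 (64 and 58). Nearest on the outside were Gm22422 (45 and 62), Snord22 (above) and Gm25394 (31 and 43). Snord15a, the neighbour of Snord15b in Rps3, had 50 counts in replicate 1 and 28 in replicate 2.

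The end boxes were read from the sequences on the RNA strand alone, as TGATGA in the first 15 bases, CTGA in the last 12 and ACA in the last 8. Both C and D were found in 9 of 35 members (25.7%) and ACA in 16 (45.7%). Among all 1096 models of 100 nt or more the shares were 1.46% for C and D and 63.0% for ACA, and among the 1061 of these that missed the minimum they were 0.660% and 63.6%. Among the models under 100 nt, 60.8% held C and D. A match of so few letters is a description of the sequence, and a missing match says nothing of the RNA's class.

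The boxes went with the symbols of the Snord and Snora members. Both Snord members held C and D, and all 3 Snora members held ACA. Scarna6 and Scarna10 held C and D, Scarna13 held ACA, and Scarna2 held a D box alone. All 9 Rnu3 members held D without TGATGA, so the match missed these box C/D RNAs. Of the 17 Gm members 12 held ACA and 5 held C and D, with Gm23547 counted in both, and Gm23262 held no match.

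Members together received 17601 counts in replicate 1, which was 0.0588% (exact 95% binomial interval 0.0580 to 0.0597) of 29915463, and 16216 counts in replicate 2, which was 0.0579% (0.0571 to 0.0588) of 27988085. Per length they weighed more, at 0.751% of all TPM in replicate 1 and 0.749% in replicate 2. TPM (transcripts per fixed total) divides counts by effective length, which for the shortest member of 129 nt leaves 30 nt, so TPM of short members rests on few counts. Members, which the rule chose by count, held 95.5% of all snoRNA and scaRNA counts in each mouse. In TPM they held 7514 of 8661 in replicate 1 and 7493 of 8646 in replicate 2. Models under 100 nt could add nothing to these totals.

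Intervals on counts cover counting error only. No p-value is given, since the smallest that exact permutation allows for 1 mouse against another is 0.5. In a tissue sample, more RNA per cell and more cells of a type that carries the RNA cannot be told apart. The counts of both mice chose the members, so levels, which were selected on, are given as a description.

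**Figure D2:**
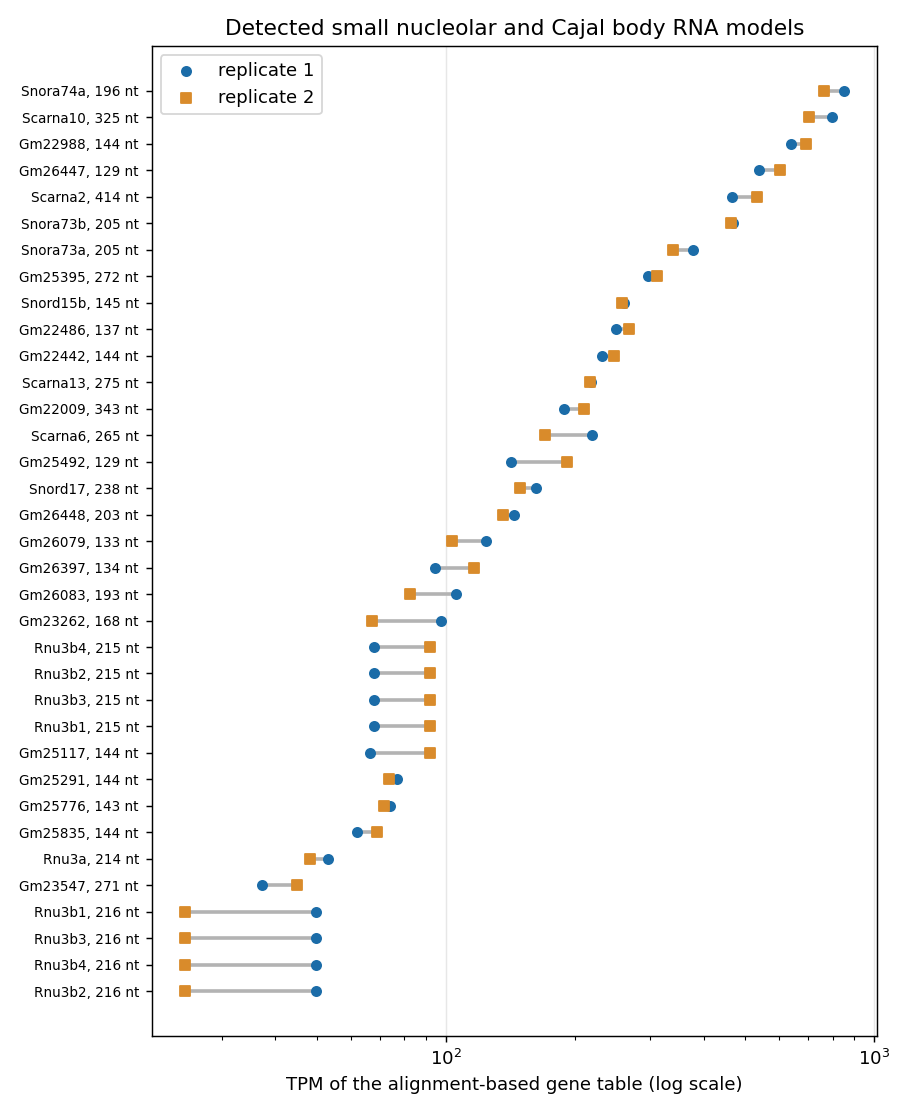
TPM of each member (horizontal axis, log scale) in replicate 1 (circles) and replicate 2 (squares), ordered by the mean of both, with the model length beside each symbol. Members run from 37.2 TPM for the 216-nt Rnu3b models to 808 TPM for Snora74a, and the widest gap between the mice is that of the 216-nt Rnu3b models at the bottom.

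Among the H/ACA RNAs named by symbol, Snora74a (U19), an H/ACA RNA at chr18:35557032-35557227, was the most abundant member with 853 TPM in replicate 1 and 764 in replicate 2 (808 ± 63.0, SD, n = 2). Snora73b had 468 and 463 TPM and Snora73a 377 and 339. U17 acts in cleavage of the precursor of the small-subunit RNA. Snora73b was above Snora73a in both mice. The deposited posterior SD of their counts, which measures how uncertainly shared reads were split, was 5.45 and 6.33 reads for Snora73b and 6.03 and 6.86 for Snora73a, small beside counts of 976 and 903 for Snora73b and 787 and 661 for Snora73a. Gm26448, a 203-nt model in an intron of Rpsa whose sequence is 88.3% identical to Snora73a, had 144 and 136 TPM.

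U3 is the box C/D RNA that pairs with the ribosomal RNA precursor to start small-subunit processing. Each of the 4 Rnu3b models of 215 nt was assigned 155 counts in replicate 1 and 195 in replicate 2, and each of the 4 of 216 nt was assigned 115 and 52.8. The values are the same in the 4 copies to the last decimal, and each pair of models differs by 1 base at the 3′ end, so the table holds 1 quantity divided among 8 models. The posterior SD of these counts was 92.2 to 130 reads in replicate 1 and 62.3 to 127 in replicate 2, of the order of the counts themselves. Values of single Rnu3b models are therefore uncertain, and the sum was 1079 counts in replicate 1 and 993 in replicate 2, or 471 and 465 TPM (468 ± 4.27, SD, n = 2). Rnu3a, at chr10:40258467-40258680 and 85.4% identical to Rnu3b, had 120 and 102 counts (53.0 and 48.2 TPM) with a posterior SD of 26.2 and 25.8.

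**Figure D3:**
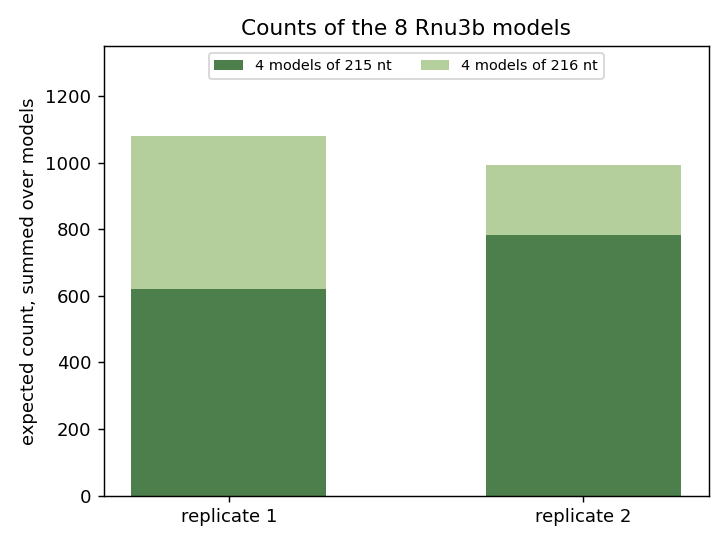
Expected counts of the 8 Rnu3b models summed by model length (stacked bars, vertical axis from 0) in replicate 1 and replicate 2. The sums of 1079 and 993 are close, while the 216-nt models (light) take a larger part in replicate 1.

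Among RNAs that guide ribosomal RNA modification, Snord15b (U15B), a guide for methylation of the large-subunit RNA, had 260 TPM in replicate 1 and 258 in replicate 2. It lies in Rps3, which encodes a small-subunit ribosomal protein. Snord17, another box C/D guide and at 238 nt the longest Snord model, had 163 and 149 TPM and lies in an intron of Snx5, a sorting nexin gene. The counting interval of the ratio between the mice covered 0 for both.

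The Scarna members are long models, and 2 of them had the most counts of all members. Scarna10 (325 nt, typed snoRNA in the annotation), which in human is the U85 RNA that carries both C/D and H/ACA parts and guides modification of the U5 small nuclear RNA, had 3542 counts in replicate 1 and 2936 in replicate 2. Scarna2 (414 nt), a guide for methylation of the U2 small nuclear RNA, had 2891 and 3079. Together these 2 RNAs held 36.6% of the members' counts in replicate 1 and 37.1% in replicate 2. Per length Scarna10 had 796 and 707 TPM, second to Snora74a, and Scarna2 had 466 and 532 TPM. Scarna13 (275 nt), a guide with ACA boxes, had 219 and 218 TPM, and Scarna6 (265 nt), a mixed-box RNA in human, had 219 and 170 TPM. The remaining Scarna models of measurable length were low: Scarna3a had 11 and 13 counts, Scarna3b 2.67 and 0, and Scarna8 0 in both.

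The Gm members spanned 41.0 to 667 mean TPM. Gm22988 had 640 TPM in replicate 1 and 694 in replicate 2, and Gm26447, a 129-nt model at chr16:23111301-23111429, had 538 and 602 TPM. These lie in Eif4a1 and Eif4a2, which encode the RNA helicases of translation initiation. Gm25395 had 297 and 312 TPM, Gm22486 (137 nt) 250.0 and 268, Gm22442 (144 nt) 231 and 247, Gm22009 (343 nt, the second longest member) 189 and 210.0, and Gm25492 (129 nt) 142 and 192. The other 9 Gm members besides Gm26448 ran from 41.0 TPM for Gm23547 to 114 TPM for Gm26079 in the mean of both mice.

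The related trio spanned much of the range of the Gm members. Gm22988 averaged 667 ± 38.5 TPM, Gm25117 79.2 ± 17.9 TPM and Gm25291 75.3 ± 2.15 TPM (SD, n = 2 each). Gm22988 was far above both relatives in each mouse, while Gm25117 and Gm25291 were within their spread of each other. The posterior SD of the Gm22988 count was 1.60 and 1.66 reads. Of the trio, Gm22988 alone overlaps an exon of its host, so its reads can be shared with the host transcript, and the part of this in its level was not tested. Their hosts differ as well: Eif4a1 for Gm22988, Sec24a (a vesicle coat gene) for Gm25291 and Nap1l1 (a histone chaperone gene) for Gm25117.

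By symbol, the median of the 2 Snord members was 207 ± 5.55 TPM and that of the 3 Snora members 465 ± 2.95 TPM (SD over the 2 mice). On the log2(TPM + 1) scale box C/D lay below box H/ACA by 1.21, with medians of 7.66 and 8.87 and a difference of -1.21 ± 0.04. The direction turned when classes were read from the end boxes. The 9 members with C and D then had a median of 215 ± 6.68 TPM. The 15 with ACA and without both C and D had 168 ± 34.0 TPM, a difference of +0.37 in log2. By mouse, the medians were 219 against 144 TPM in replicate 1 and 210 against 192 TPM in replicate 2. The C and D group includes Scarna10 (751 TPM) and Scarna6 (195 TPM), which carry mixed boxes in human. The order without them was not computed. So these data do not give an order of the classes that holds under both ways of naming them. The 11 members with neither pattern, 9 of them Rnu3, had a median of 67.7 TPM. Though U3 is a box C/D RNA, both ways of naming leave the Rnu3 members (median 50.6 ± 3.42 TPM) out of box C/D. They also leave out Scarna2, a methylation guide at 499 TPM. The order with these counted as box C/D was not computed. The median of the 4 Scarna members was 359 ± 22.5 TPM, against 120.2 ± 5.15 TPM for all 35 members.

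Levels between the mice were close for most members. Log2 ratios of replicate 1 over replicate 2, on counts scaled by the trimmed mean of M-values (TMM), had a median of 0.07 over the 35 members and of 0.01 over the 13888 genes with at least 50 counts in both mice. Of the members, 4 had a ratio over 1 in size, where 0.382% of those genes did, and all 4 were the 216-nt Rnu3b models at 1.08, higher in replicate 1 (0.202% of the genes tested). No member was below -1, where 0.18% were. The 215-nt models were at -0.36, higher in replicate 2, and the sum of the 8 was at 0.09 (counting interval -0.04 to 0.21). With the Rnu3b models summed, no member was over 1.

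A ratio over 0.5 in size was seen in 5 members, where 4.46% of the genes tested had one. These were the 4 Rnu3b models and Gm23262 at 0.61 (counting interval 0.21 to 1.02), which had 133 counts in replicate 1 and 85.5 in replicate 2. All 5 were higher in replicate 1, as 1.3% of the genes tested were by that much, and none was below -0.5, where 3.17% were. The 27 members other than Rnu3b ran from -0.40 to 0.61, with 15 higher in replicate 1 and 12 higher in replicate 2. Their median size of difference was 0.15, against 0.12 for the 12024 genes in the members' range of mean counts.

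The counting interval excluded 0 for 15 of the 35 members, where 36.4% of the genes tested did so. Of these 15, 8 are the Rnu3b models, whose interval does not include the read splitting. The other 7 were Snora74a (0.22), Scarna10 (0.24), Snora73a (0.22), Scarna6 (0.43), Gm26083 (0.42) and Gm23262 (0.61), higher in replicate 1, and Scarna2 (-0.13), higher in replicate 2. Scarna6 had 717 counts in replicate 1 and 519 in replicate 2, and its neighbour in the same host, Gm25395, had 1011 and 992 (ratio -0.01). Besides the 215-nt Rnu3b models at -0.36, the lowest ratios were those of Gm25117 (-0.40), Gm25492 (-0.37), Gm26397 (-0.24) and Gm23547 (-0.21), and the intervals of these 4 covered 0. The oligodendrocyte gene Mbp was higher in replicate 1 too, with a ratio of 0.32, and its part in the members' ratios was not tested.

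**Figure D4:**
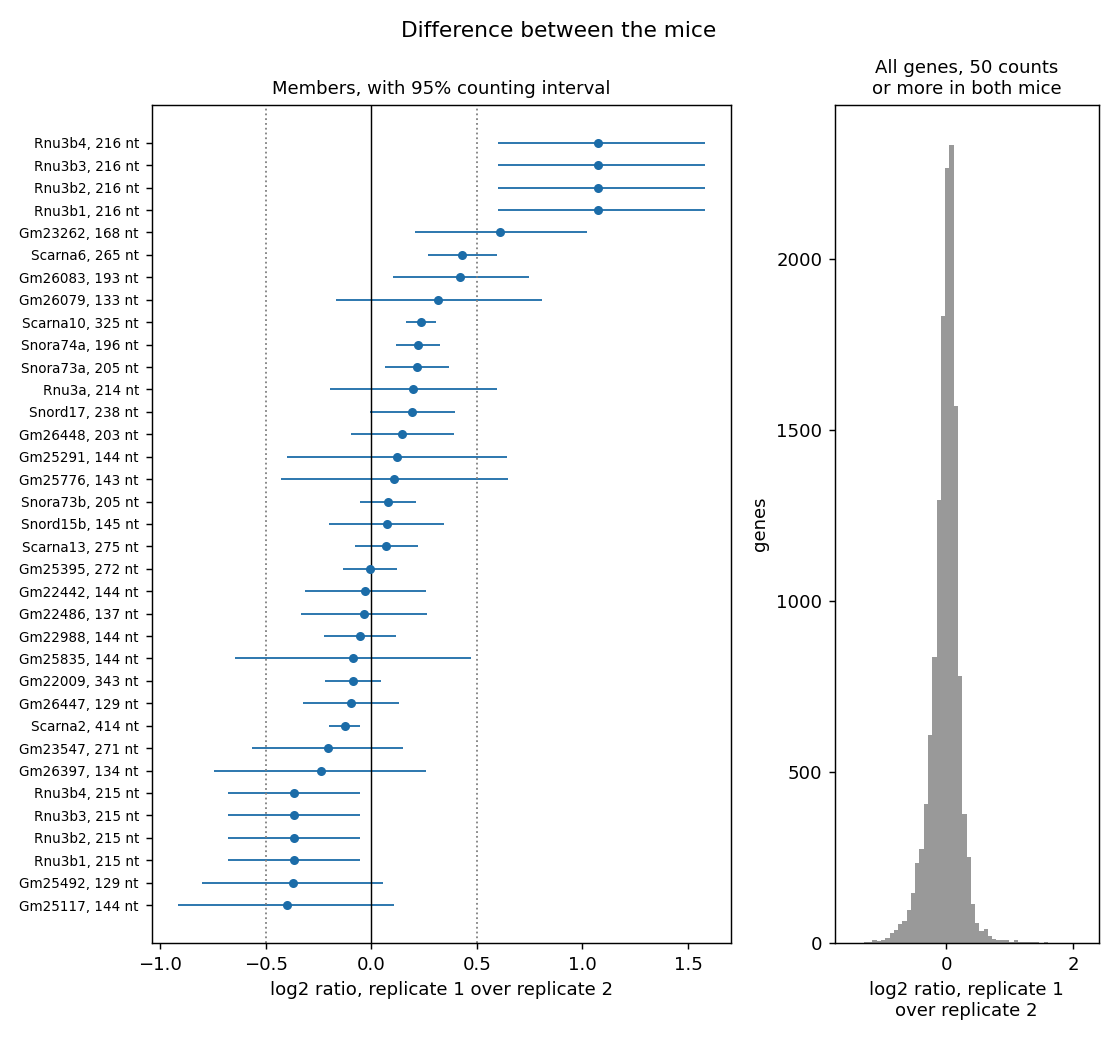
Left, the log2 ratio of replicate 1 over replicate 2 for each member with its 95% counting interval, with a solid line at 0 and dotted lines at 0.5 in size. Right, the number of genes at each ratio among the 13888 genes with at least 50 counts in both mice; the 216-nt Rnu3b models at 1.08 are outside the bulk of that distribution, and the other members lie between -0.40 and 0.61.

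Most members lie inside another gene. A host on the same strand was annotated for 33 of 35 members, in 23 hosts, of which 19 are protein-coding and 4 are non-coding (AC121821.1, Snhg3, Snhg10 and Snhg20). Scarna2 and Rnu3a had none. Tex14 spans the 8 Rnu3b models, and Atg16l1, Eif4a1 and Snhg3 span 2 members each. Host here means position alone, and whether a member is cut out of its host's RNA was not tested, for Rnu3b in Tex14 as for the rest. Another gene on the same strand also spans some members, namely Rcc1 (6.50 and 5.45 TPM) over both Snora73 copies and Gm28285 (2.75 and 6.24 TPM) over Snora74a, and a lincRNA model on the opposite strand, Gm17300, was listed at 0 over the Snora73 copies.

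Per length, members were mostly above their hosts. TPM was above that of the host in both mice for 28 of 33 members, where 13.3% of the 315 annotated models of 100 nt or more with a host were. The rule chose members by a high count, so nothing is read from that gap. Leaving out the Rnu3b models, 20 of 25 were above their host, with a median log2 ratio of member over host of 2.14 ± 0.11 (SD, n = 2). Of the 14 of these inside an intron alone, 11 were above, and of the 11 that overlap an exon of a host transcript, whose reads can be shared with the host, 9 were. Across the 25 members Spearman's rho between member and host TPM was -0.20, as a description of points that share libraries and depth.

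The 5 largest ratios other than those of Rnu3b were to hosts at mean TPM of 4.52 to 12.3. Snora74a was 98.5-fold above AC121821.1, a processed transcript at 7.23 ± 0.877 TPM whose exon it overlaps, as Scarna10 and Snora73a overlap exons of theirs. The read-based tables put this host at 333 TPM in replicate 1 and 295 in replicate 2, and on that level Snora74a was 2.57-fold above it. Scarna10 was 57.5-fold above Ncapd2, a condensin subunit gene at 12.1 ± 1.73 TPM, Scarna13 39.9-fold above Snhg10 at 4.52 ± 0.679 TPM, and Snora73b and Snora73a 35.1-fold and 27.0-fold above Snhg3 at 12.3 ± 0.912 TPM. Folds here are on the TPM + 1 scale and understate ratios to low hosts. The 215-nt Rnu3b models were at a log2 ratio of 6.01 ± 0.21 over Tex14, a germ-cell gene listed at 0.190 TPM in replicate 1 and 0.300 in replicate 2.

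The host level depends on the table. Read-based TPM was higher for the tissue-check genes as well, as for Snap25 in replicate 1 (1996 against 1277 TPM). Here only the host level was taken from the read-based tables, so the 2 sides are on unlike scales. With read-based host TPM, 25 of 33 members were above their host. Of the 25 members other than Rnu3b, the ratio was lower for 24 and moved by over 1.5 times for 9. It turned for 3 of them, and the part of the unlike scales in this was not tested. Gm26083 at 105 TPM in replicate 1 and 82.3 in replicate 2 was then below Snhg20 at 122 and 108. Gm26447 was below Eif4a2 at 608 and 661 TPM, and Gm26397 was below Tomm20 at 123 and 127 TPM. Eif4a1 was at 421 and 393 TPM there, which leaves Gm22988 1.64-fold above it and puts it 6.14-fold above Gm25835. Eif4g2 was 6.91-fold above Gm23262, Nap1l1 2.21-fold above Gm25117, and Gm25291 4.92-fold above Sec24a.

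In the alignment-based tables, 5 members were below their host in both mice. Of these, Gm23262 and Gm23547 overlap a host exon. Gm23262 was at 97.7 TPM in replicate 1 and 67.4 in replicate 2, and its host Eif4g2, a translation initiation factor gene, was at 289 and 287 TPM, 3.52-fold higher. Gm25835 averaged 65.5 ± 4.82 TPM under Eif4a1 at 131 ± 7.57 TPM. Gm25117 lay under Nap1l1 (101 ± 3.54 TPM), Gm26448 under the ribosomal protein gene Rpsa (162 ± 3.85 TPM) and Gm23547 under the prohibitin gene Phb2 (49.7 TPM). In the mean of both mice, all but Gm23262 were below by less than 1 in log2, though Gm25835 was at -1.13 in replicate 1.

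Members of 1 host were not at 1 level. In Eif4a1, Gm22988 had 640 TPM in replicate 1 and 694 in replicate 2, while Gm25835, a C and D model at chr11:69668852-69668995, had 62.1 and 68.9. In Atg16l1, an autophagy gene at 31.5 ± 3.83 TPM, Gm25395 had 297 and 312 TPM and Scarna6 219 and 170, a log2 ratio to the host of 3.24 ± 0.12 and 2.58 ± 0.43. Gm25395 was the higher in both mice. In Snhg3, Snora73b was the higher in both mice.

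The other hosts cover a broad set of genes. Of the members named next, Gm26447, Snord15b, Gm22486, Gm26079 and Gm26083 overlap a host exon, so their reads can be shared with the host. Gm26447 was 1.46-fold above Eif4a2 (389 ± 1.68 TPM) and Gm22442 1.29-fold above Chd3, a chromatin remodeller gene at 186 ± 14.2 TPM. Snord15b was 2.55-fold above Rps3 and Snord17 4.29-fold above Snx5. Gm25492 was 7.15-fold above Bud23, which encodes a ribosomal RNA methyltransferase, Gm22486 7.91-fold above Ptcd3, a mitochondrial ribosome gene, Gm22009 6.40-fold above the importin gene Kpna4, and Gm25291 8.05-fold above Sec24a. As log2 ratios, further values were those of Gm26079 to the chromatin gene Ep400 (1.42 ± 0.32), Gm25776 to the basal transcription factor gene Gtf2a1 (1.70 ± 0.01) and Gm26397 to the mitochondrial import gene Tomm20 (0.34 ± 0.22). Gm26083 was at 2.51 ± 0.70 over Snhg20, whose own level differed between the mice, at 12.2 TPM in replicate 1 and 19.6 in replicate 2.

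**Figure D5:**
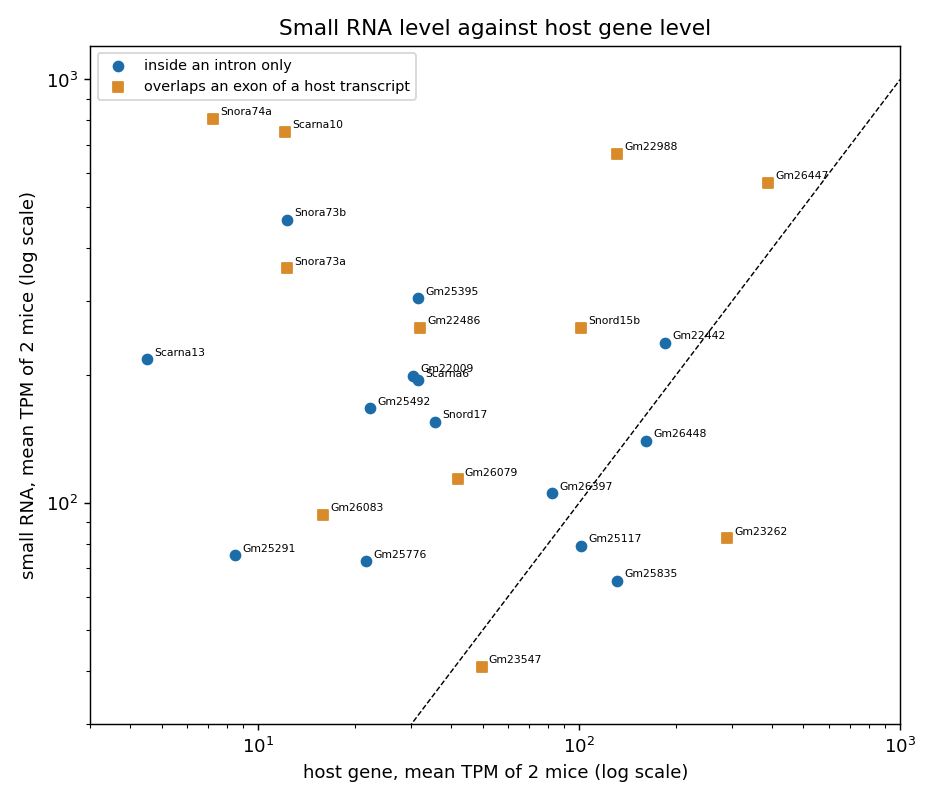
Mean TPM over both mice of each member with a host other than the Rnu3b models (vertical axis, log scale) against that of its host gene (horizontal axis, log scale), for members inside an intron alone (circles) and those that overlap an exon of a host transcript (squares). The dashed line marks equal TPM; 20 of 25 members lie above it, and no common slope is seen.

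Genes that encode the proteins of these particles were expressed as RNA, and protein was not measured. Of 24 chosen genes of the snoRNA and scaRNA protein machinery, 24 were at 1 TPM or more in both mice, with a median of 15.7 ± 1.91 TPM, from 2.73 TPM for the H/ACA assembly factor Shq1 to 56.2 TPM for Nop56. Among the box C/D core genes, the methyltransferase Fbl (fibrillarin) had 21.3 TPM in replicate 1 and 24.2 in replicate 2, Nop56 56.9 and 55.5, and Snu13 and Nop58 averaged 47.8 ± 3.96 and 24.4 ± 2.42 TPM. Among the box H/ACA core genes, the pseudouridine synthase Dkc1 (dyskerin) had 12.6 and 16.6 TPM, and Nop10, Nhp2 and Gar1 averaged 21.9 ± 0.467, 19.8 ± 0.0424 and 18.0 ± 0.255 TPM. The median of the 4 C/D core genes was 36.5 ± 2.64 TPM and that of the 4 H/ACA core genes 18.9 ± 0.148 TPM. This is the opposite order to the medians of the Snord and Snora members. By end boxes, which leave out Rnu3, the order of the members was the same as that of the core genes (+0.37 in log2). That gap was uneven between the mice, with medians of 219 against 144 TPM in replicate 1 and 210 against 192 TPM in replicate 2. The 16 assembly and trafficking genes had a median of 10.4 ± 0.134 TPM, among them the Cajal body genes Coil (9.02 ± 0.438 TPM) and Wrap53 (4.33 ± 0.622 TPM).

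None of the 24 protein genes had a log2 ratio between the mice over 0.5 in size, where 4.46% of all genes tested did. Their ratios ran from -0.23 to 0.19, with 13 higher in replicate 1 and 11 higher in replicate 2, and 5 counting intervals excluded 0, where 36.4% of the genes tested did so.

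The read-based tables, which quantify transcripts directly from the reads, gave almost none of these RNAs. Scarna2, the longest member, had 963 counts in replicate 1 and 1051 in replicate 2 there. Gm22009, the second longest, had 0 and 10, and the other 33 members had 0 in both mice. The effective length in those tables was a median of 344.1 nt in replicate 1 and 340.1 nt in replicate 2 under the transcript length, longer than every member other than Scarna2 and, in replicate 2, Gm22009.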

How the data were processed

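The gene tables were quantified from a transcriptome alignment on mm10 and GENCODE M21, and further transcript tables directly from the reads, per the deposited listing. Aligner and quantifiers are not named in the labels or files. The values used are deposited expected counts (estimated reads of a gene, without normalization) and TPM (deposited too), with, per the file headers, the posterior standard deviation of the count and the effective length. Reads that fit several models were divided among them, which makes single Rnu3b models uncertain. TPM divides by effective length, which raises short models. Whether the counting used strand is not given.

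Sequences, positions and hosts came from GENCODE M21, which matched 1558 of 1558 models; a host is a gene that contains the member on the same strand. Levels are mean and SD of TPM over the 2 mice. Class medians and host ratios use log2(TPM + 1). Ratios between the mice used expected counts scaled by TMM (edgeR 4.0.16 in R 4.3.3), a prior count of 0.5 and exact binomial intervals at 95%. The ratio step was tested on simulated data with counting error alone, so that test does not cover other spread between the libraries. Over 18256 genes the libraries differed by a chi-square of 11.6 per degree of freedom, so they are separate libraries. The labels number the animals separately but give them 1 donor identifier, so the SD may be partly technical. The total expected counts of 29915463 and 27988085 set the precision.

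Genes named are the highest by TPM and by count, every Scarna member, the extremes of the ratios between mice, of the host ratios and of length, those nearest the minimum, members sharing a host, and symbols chosen for their role. The members and lists were chosen with earlier results of these data known. Alternatives were other minimums (20 and 100), a pseudocount of 0.1, a prior count of 2, DESeq2 1.42.0 size factors, library and spike-in totals, no filter, TPM rescaled to protein-coding genes, counts scaled by library size alone, the read-based tables, each mouse alone and, added after the data were seen, Rnu3b summed or left out and classes by end boxes. Python 3.11.15, numpy 2.4.6, pandas 2.3.3, scipy 1.17.1, Biopython 1.88 and matplotlib 3.10.9 did the rest.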

Additional observations from a re-analysis of the deposited data

How the results depend on the processing

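Of 74 values recomputed under alternatives, 46 stayed within the spread or within 1.5 times, 25 moved and 3 changed sign. The number of members was 23 at a minimum of 100 counts and 1 in the read-based tables, and 36 with either mouse alone. The median level of box C/D members (7.66 in log2) was 8.80 on TPM rescaled to protein-coding genes, 6.82 at a minimum of 20, 3.54 as counts scaled by library size, 0 in the read-based tables and 7.75 by end boxes, and 7.62 to 7.69 with 1 mouse left out. That of box H/ACA (8.87) was 10.01, 6.99, 5.06, 0 and 7.39 in the same order, and 8.86 to 8.87. Their difference (-1.21) was -0.17 at a minimum of 20, -1.53 as counts scaled by library size and 0 in the read-based tables. By end boxes the difference was 0.37, thus reversed. That naming brings in Gm members and also Scarna6, Scarna10 and Scarna13. The end boxes, like the symbols, leave Rnu3 out of box C/D. With 1 mouse left out the difference was -1.24 to -1.18.

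The median ratio between the mice (0.07) turned to -0.33 with spike-in totals, which shift every gene by -0.40, and to -0.0073 at a minimum of 100. Ratios over 1 numbered 0, and not 4, with spike-in totals, at a minimum of 100 and with Rnu3b summed. Those over 0.5 numbered 13, 0 and 1 there, and 9 at a minimum of 20, against 5. The median ratio to the host (2.98) was 2.26 with read-based host levels, 3.15 without exon overlap, 2.14 without Rnu3b and 2.95 to 3.01 with 1 mouse left out. The cause of the other moves was not tested. The median of the protein genes (15.7 TPM) was 14.4 to 17.1. The Rnu3b and end-box alternatives were chosen after seeing the data. No member is in a Snord113 to Snord116 cluster, so leaving those out changed nothing. No paired analysis was possible because both mice belong to 1 group. Depth limits members near 50 counts, and models under 100 nt were not measured.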

Other observations

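Other small nuclear or nucleolar RNAs that the rule leaves out, because the annotation gives them other types, were also in the tables. Terc, the telomerase RNA, whose 3′ part is an H/ACA domain, had 8 counts in replicate 1 and 12 in replicate 2 (1.25 and 2.01 TPM). Rpph1, the RNA of ribonuclease P, was at 7018 TPM in replicate 1 and 6867 in replicate 2 (6943 ± 107, SD, n = 2), above every member. Rmrp, the related RNA that acts in ribosomal RNA processing, was at 3242 and 3165 TPM, and as 2 gene models carry that symbol its value is uncertain.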
